A study of Mus musculus with 8 samples.

Results

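The comparison described here is the loss of Tet2 in Th17 cells: 2 arrays of Tet2-/- Th17 cells against 2 arrays of Tet2 wild-type Th17 cells, out of 8 arrays in the series. All 19938 genes with a probeset of their own, from 35556 probesets on the array, were compared, as the Tet2-/- mean minus the wild-type mean of log2 expression. Per the labels, the cells began as naive CD4+ T cells (CD25-negative, CD62L-high, CD44-low) sorted from the lymph nodes and spleens of C57BL/6 mice. They were stimulated through CD3 and CD28 with IL-6 (10 ng/ml) plus TGF-β1 (0.5 ng/ml) and with antibodies that block interferon-γ and IL-4. Both genotypes received the same treatment, and the other 4 arrays, of Th1 cells grown with 10 ng/ml IL-12 and 30 U/ml IL-2, entered only the estimate of the spread and the test of whether the genotype difference depended on the cell type. How the Tet2 allele was made, and how many mice of which sex each culture came from, the labels do not say.

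Th17 cells are helper T cells that secrete IL-17A, IL-17F and IL-21 and guard mucosal surfaces; TGF-β and IL-6 drive them from naive cells through transcription factors that include STAT3 and RORα. Tet2 oxidises 5-methylcytosine in CpG dinucleotides, the first step of active DNA demethylation, and in T cells it is known to act at cytokine loci. The results below go from the genes that define Th17 cells to the cytokines, receptors and metabolic genes around them.

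Promoters of some genes described below are shown first, because CpG sites are where Tet2 acts. These genes were chosen with earlier results of these data known, and the choice does not mark them as sites of Tet2 action. The sequences are from RefSeq (build GRCm38.p6) and run 5′ to 3′ on the strand of the gene, from 250 bases before to 50 bases after its most upstream listed start. In the first 5, each CG dinucleotide is in capitals. Il17a lies at chr1:20730655-20730954 on the plus strand, Il17f at chr1:20784221-20784520 on the minus strand, Ccl20 at chr1:83116516-83116815 on the plus strand, Gpr83 at chr9:14859960-14860259 on the plus strand and Bcl6 at chr16:23988803-23989102 on the minus strand.
Il17a: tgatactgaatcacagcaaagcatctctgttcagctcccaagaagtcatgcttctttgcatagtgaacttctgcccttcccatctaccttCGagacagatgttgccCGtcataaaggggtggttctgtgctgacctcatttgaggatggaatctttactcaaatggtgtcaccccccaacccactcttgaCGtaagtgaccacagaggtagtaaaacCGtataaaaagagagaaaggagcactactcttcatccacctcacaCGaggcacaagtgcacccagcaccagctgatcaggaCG
Il17f: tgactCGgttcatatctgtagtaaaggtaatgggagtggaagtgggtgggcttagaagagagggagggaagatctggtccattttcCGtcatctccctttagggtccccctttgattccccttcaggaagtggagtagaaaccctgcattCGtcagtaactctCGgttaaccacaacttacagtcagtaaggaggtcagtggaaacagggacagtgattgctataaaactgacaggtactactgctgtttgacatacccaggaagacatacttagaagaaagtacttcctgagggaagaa
Ccl20: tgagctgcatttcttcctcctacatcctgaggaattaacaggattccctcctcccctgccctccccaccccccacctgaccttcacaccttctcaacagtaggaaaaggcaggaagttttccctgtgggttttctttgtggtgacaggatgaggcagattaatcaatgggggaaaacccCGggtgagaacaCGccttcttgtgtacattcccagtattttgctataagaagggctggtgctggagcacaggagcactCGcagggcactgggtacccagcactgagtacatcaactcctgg
Gpr83: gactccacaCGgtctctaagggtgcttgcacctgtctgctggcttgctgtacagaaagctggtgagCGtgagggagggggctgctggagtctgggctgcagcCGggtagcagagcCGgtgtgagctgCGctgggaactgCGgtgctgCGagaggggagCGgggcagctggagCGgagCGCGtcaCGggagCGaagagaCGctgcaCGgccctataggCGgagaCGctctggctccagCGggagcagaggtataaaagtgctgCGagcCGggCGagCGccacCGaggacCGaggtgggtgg
Bcl6: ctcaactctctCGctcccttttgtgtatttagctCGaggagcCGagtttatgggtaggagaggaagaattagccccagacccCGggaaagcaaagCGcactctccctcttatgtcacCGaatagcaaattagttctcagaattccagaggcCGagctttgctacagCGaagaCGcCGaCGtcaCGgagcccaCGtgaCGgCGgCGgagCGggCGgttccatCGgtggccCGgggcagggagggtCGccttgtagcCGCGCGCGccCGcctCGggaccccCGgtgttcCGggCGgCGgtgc
The promoters of the 3 Th17 effector genes were poor in CG dinucleotides, with 6 in Il17a, 4 in Il17f and 3 in Ccl20, while Gpr83 held 24 and Bcl6 31. Over the 15614 measured genes with a promoter in the RefSeq table the median was 15 (quartiles 5 and 25). No methylation was measured in these files, so the sequences describe only where methylation could lie.

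The next 3 promoters are of genes in the 2 groups with higher readings described further on. In Trim30a (chr7:104465144-104465443, minus strand) and Oas3 (chr5:120777610-120777909, minus strand) the capitals mark GAAANNGAAA, the core of the interferon-stimulated response element, on either strand. In Hmgcs1 (chr13:119690101-119690400, plus strand) they mark CACCCCAC, the core of a sterol response element.
Trim30a: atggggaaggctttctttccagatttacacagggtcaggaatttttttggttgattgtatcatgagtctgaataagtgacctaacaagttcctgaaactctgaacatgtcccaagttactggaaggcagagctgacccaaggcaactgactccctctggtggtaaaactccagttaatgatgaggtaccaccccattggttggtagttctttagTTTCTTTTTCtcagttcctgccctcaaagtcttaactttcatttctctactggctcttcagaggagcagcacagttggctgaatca
Oas3: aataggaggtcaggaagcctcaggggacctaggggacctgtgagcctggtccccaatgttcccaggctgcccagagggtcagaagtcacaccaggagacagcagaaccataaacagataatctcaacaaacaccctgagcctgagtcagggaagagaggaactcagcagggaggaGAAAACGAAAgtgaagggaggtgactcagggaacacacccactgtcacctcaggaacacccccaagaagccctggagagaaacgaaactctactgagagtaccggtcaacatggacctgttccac
Hmgcs1: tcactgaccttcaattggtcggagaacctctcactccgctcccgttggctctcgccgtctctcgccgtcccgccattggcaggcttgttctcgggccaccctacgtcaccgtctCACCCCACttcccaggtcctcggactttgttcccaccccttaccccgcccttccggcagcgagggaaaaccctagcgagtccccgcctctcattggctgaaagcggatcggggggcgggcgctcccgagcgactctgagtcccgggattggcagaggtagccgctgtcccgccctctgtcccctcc

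The 4 Th17 arrays correlated with each other across genes at 0.992 to 0.995, and the closest arrays were of different genotypes, wild-type replicate 2 and Tet2-/- replicate 1 (0.995, against 0.993 for the 2 wild-type arrays and 0.994 for the 2 Tet2-/- arrays). The T cell markers were read at a like level throughout (13 measured, mean log2 level 10.46 to 10.61), with Cd4 at 10.29 and 10.29 in wild-type and 10.44 and 10.24 in Tet2-/- cells. Cd8a and Cd8b1 read 6.16 to 6.51, under the median of all genes and arrays (6.59), as did the B cell marker Cd79a (3.84 to 4.21) and the NK cell marker Ncr1 (4.22 to 4.73). Fewer cells of a type and less RNA per cell cannot be told apart in such bulk samples. The arrays stood apart in sex-linked transcripts. Xist, the RNA of the inactive X chromosome, read 5.20 and 10.09 in wild-type and 8.62 and 11.27 in Tet2-/- cells, while the Y-linked translation factor gene Eif2s3y read 9.67 and 8.48 in wild-type and 9.38 and 4.36 in Tet2-/- cells. Wild-type replicate 1 therefore had the lowest Xist reading and Tet2-/- replicate 2 the lowest Y-linked reading, and the other arrays held high readings of both.

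**Figure D1:**
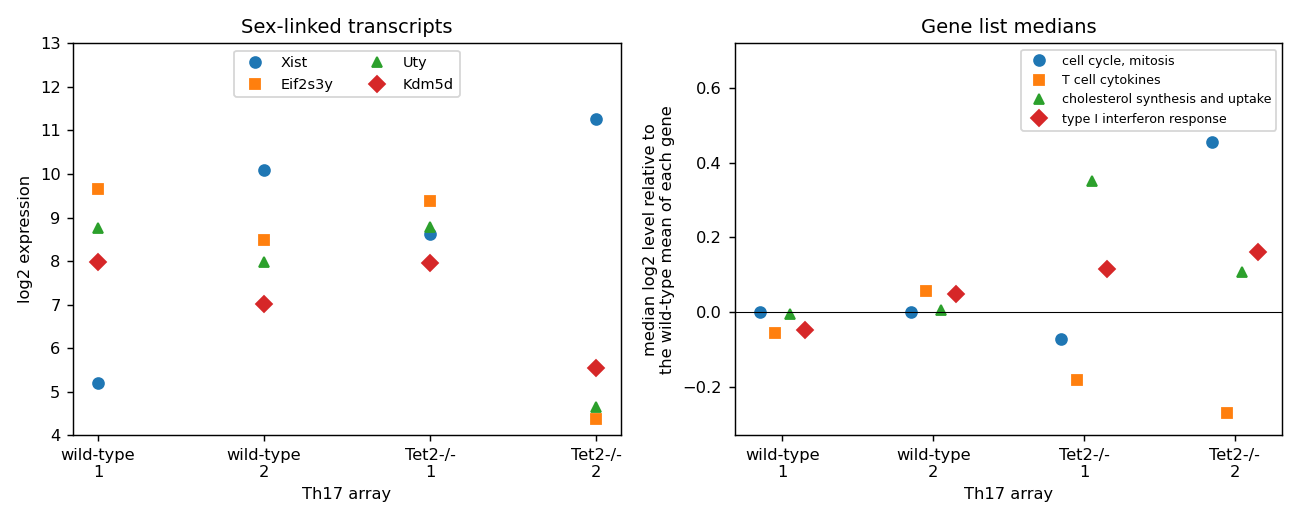
Left, log2 expression of Xist and of the 3 measured Y-linked genes in each of the 4 Th17 arrays; right, the median over the members of 4 gene lists of each gene's log2 level relative to its wild-type mean. Xist runs from 5.20 to 11.27 and the mitosis genes stand at 0.46 in Tet2-/- replicate 2 against -0.07 in Tet2-/- replicate 1, while cytokine genes lie below 0 in both Tet2-/- arrays (-0.18 and -0.27).

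Loss of Tet2 gave no gene an adjusted p under 0.05 in Th17 cells. After Benjamini-Hochberg adjustment limma called 0 of 19938 genes (0%). At an unadjusted p under 0.05 there were 848 (4.25%), of which 561 (2.81% of all genes) were higher in Tet2-/- cells and 287 (1.44%) lower. The same fit without moderated variances also called 0 genes, with 542 and 289 at an unadjusted p under 0.05. The excess of higher genes depended on the scaling: 66.2% of the 848 were higher as deposited, 55.7% after each array was centred on its median (452 against 359) and 53.5% after quantile normalization (441 against 383). Leaving out wild-type replicate 1 gave 2 calls and leaving out Tet2-/- replicate 1 gave 9. Differences were small, with 95 genes differing by at least 0.5 log2 units and 10 by at least 1. These counts include sex-linked genes, which had the widest differences in both directions (Xist at 2.30 and a Y-linked gene at -2.20). Tet2 itself read 8.53 and 8.51 log2 units in the wild-type arrays and 8.37 and 8.42 in the Tet2-/- arrays (difference -0.13, SE 0.117); the position of its probeset relative to the deletion is unknown, so this reading does not check the labels. In what follows, values are readings and differences that did not pass the test, and list counts at an unadjusted p under 0.05 stand against 2.81% of all genes in the higher and 1.44% in the lower direction.

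**Figure D2:**
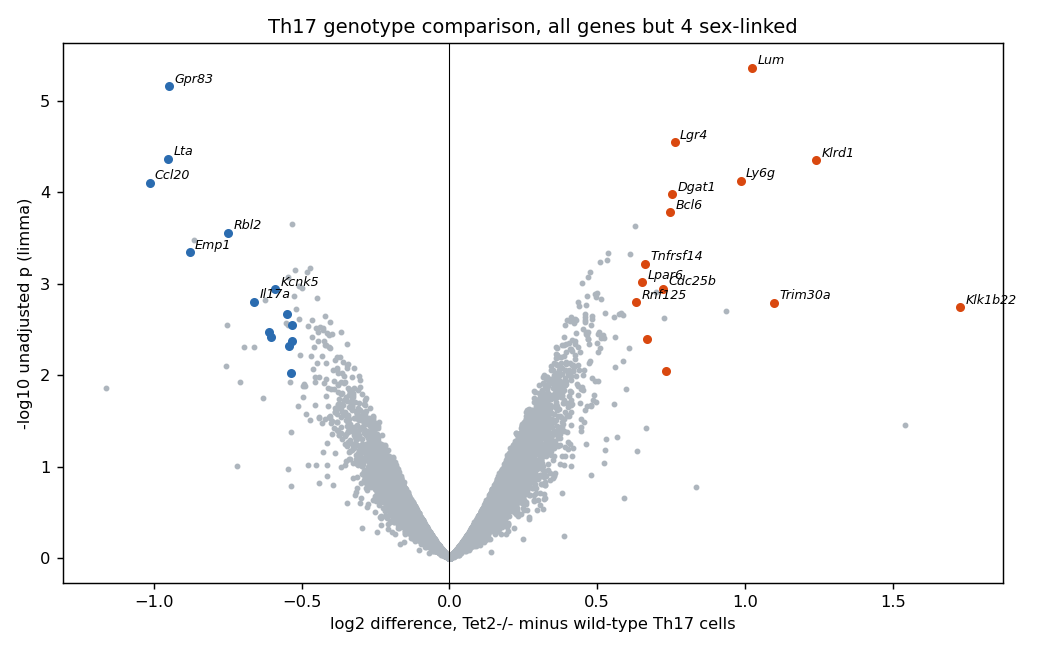
Log2 difference (Tet2-/- minus wild-type Th17 cells, x axis) against the negative log10 of the unadjusted limma p (y axis), each point a gene; the 28 genes with the largest differences under the naming rule are coloured, those with the smallest p are labelled, and Xist and the 3 Y-linked genes are left out. Lum and Gpr83 stand highest, at 1.02 and -0.95, and no gene passed the adjusted threshold (smallest adjusted p 0.0689).

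Among the genes that define Th17 cells, Il17a, Il21 and Ccl20 read lower in both Tet2-/- arrays than in both wild-type arrays, while the Il17f readings interleaved. Of 21 measured Th17 effector and surface genes 12 were lower and 9 higher (median -0.08), 6 lower (1.44% of all genes in that direction) and 1 higher (2.81%) at an unadjusted p under 0.05. Without wild-type replicate 2 the list turned, with 11 of 21 higher (median 0.06), and the median was -0.20 without wild-type replicate 1, -0.18 without Tet2-/- replicate 1 and -0.04 without Tet2-/- replicate 2. Il17a, the signature cytokine, read 9.81 and 9.85 log2 units in the wild-type arrays and 9.43 and 8.91 in the Tet2-/- arrays: both Tet2-/- arrays lay below both wild-type arrays, a 1.58-fold difference of the means (log2 -0.66, SE 0.164, 95% confidence interval -1.02 to -0.30, limma adjusted p = 0.73). The difference was -0.40 without Tet2-/- replicate 2 and -0.92 without Tet2-/- replicate 1. Its neighbour Il17f, a related cytokine, read 10.76 and 11.03 in wild-type and 11.01 and 10.61 in Tet2-/- cells, with the arrays of the genotypes interleaved (difference -0.08, confidence interval -0.43 to 0.27). Il21, which reinforces the Th17 program, read 11.33 and 11.26 in wild-type and 11.02 and 10.73 in Tet2-/- cells, without overlap (-0.42, SE 0.172; -0.28 without Tet2-/- replicate 2). The largest difference among Th17 effector genes was that of Ccl20, the chemokine that attracts cells with the receptor Ccr6: 9.09 and 8.96 log2 units in the wild-type arrays and 8.27 and 7.75 in the Tet2-/- arrays (2.02-fold lower, log2 -1.01, SE 0.176, adjusted p = 0.224). For Ccl20 the difference was -1.27 without Tet2-/- replicate 1 and -0.76 without Tet2-/- replicate 2. It was -0.95 without wild-type replicate 1 and -1.08 without wild-type replicate 2. Without the arrays of highest and lowest Y-linked level it was -0.69. Csf2, which encodes GM-CSF, differed by -0.20 (SE 0.18), the IL-23 receptor gene Il23r by -0.22 (SE 0.152) and Ccr6 by -0.27 (SE 0.152).

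The transcription factors that direct the Th17 program lay on both sides of 0. Of 17 measured factors 10 were higher and 7 lower (median difference 0.00, against 0.02 over all genes), and 1 had an unadjusted p under 0.05. With the arrays centred on their medians 8 were higher, and with single arrays left out the count ran from 8 (median -0.05, without Tet2-/- replicate 1 or wild-type replicate 1) to 13 without wild-type replicate 2 (median 0.11) and 12 without Tet2-/- replicate 2 (median 0.17). The member at that level was Rora, which encodes the nuclear receptor RORα, at 9.22 and 9.47 in wild-type and 9.78 and 9.55 in Tet2-/- cells (0.32, SE 0.135). Batf, an AP-1 factor needed for Th17 cells, differed by 0.28 (SE 0.129), the aryl hydrocarbon receptor gene Ahr by 0.32 (SE 0.155), Stat3 by 0.24 (SE 0.146), Irf4 by -0.11 (SE 0.126) and Maf by -0.05 (SE 0.236). Rora, Batf and Ahr thus read above both wild-type arrays in both Tet2-/- arrays, whereas Stat3, Irf4 and Maf overlapped. Il22 was not analysed here, having no probeset with a single gene symbol.

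Factors of other helper lineages differed in both directions: of 23 measured, 14 were higher as deposited and 11 with the arrays centred on their medians, 11 without wild-type replicate 1 or Tet2-/- replicate 1, and 17 without wild-type replicate 2 or Tet2-/- replicate 2. Bcl6, the repressor that directs follicular helper T cells, read 7.49 and 7.82 log2 units in the wild-type arrays and 8.50 and 8.31 in the Tet2-/- arrays, 1.68-fold higher (log2 0.75, SE 0.141, adjusted p = 0.366). Its antagonist Prdm1, which encodes Blimp-1, stayed under the median level of all genes (6.59) in every Th17 array, at 5.89 and 5.84 in wild-type and 5.97 and 6.23 in Tet2-/- cells. Tbx21, which encodes the Th1 factor T-bet, read 7.46 and 7.89 in wild-type and 6.95 and 7.31 in Tet2-/- cells, lower without overlap (-0.54, SE 0.159). Gata3, the Th2 factor, differed by -0.27 (SE 0.159) and Foxp3, the factor of regulatory T cells, by -0.01 (SE 0.122), both with overlapping arrays. Id3, an inhibitor of E proteins, read 6.42 and 7.30 in wild-type and 7.50 and 7.33 in Tet2-/- cells; its 2 wild-type arrays lay further apart than the 2 genotypes did on average. In the follicular helper list, which holds Bcl6, 7 of 18 measured members were higher and 11 lower (median -0.10), with Cd40lg at -0.34, Il21 at -0.42 and the costimulator Icos at -0.31 as the 3 lower members at an unadjusted p under 0.05; without Tet2-/- replicate 2, 9 were higher and 9 lower (median 0.02).

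**Figure D3:**
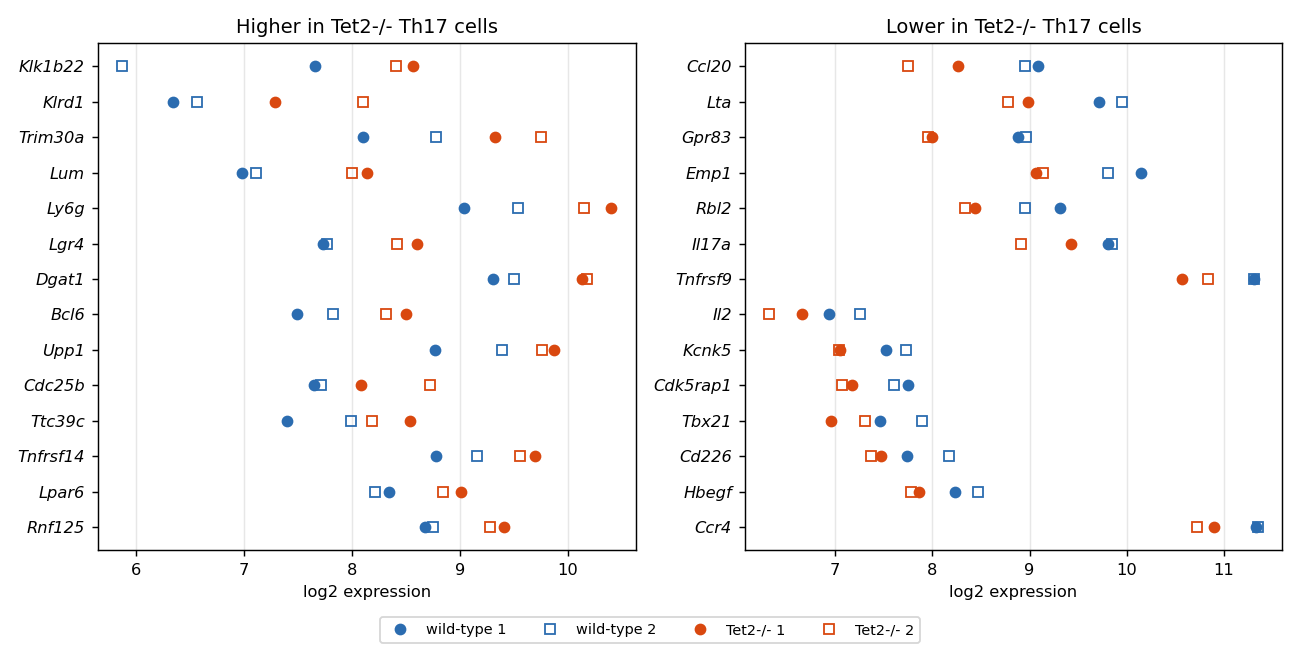
Log2 expression of the 28 named genes (14 higher, left; 14 lower, right) in each of the 4 Th17 arrays; blue marks wild-type and orange Tet2-/- arrays, circles replicate 1 and squares replicate 2. The rule asked for arrays that do not overlap between genotypes; the gap is narrow for Il2 and Tbx21 and wide for Lum and Gpr83.

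T cell cytokines as a list lay mostly lower in Tet2-/- cells. Of 27 measured cytokine genes 25 were lower and 2 higher, with a median difference of -0.20 (all genes 0.02, with 43.4% lower). In 15 the arrays of the genotypes did not overlap, all in the lower direction (13.3% of all genes), and 11 had an unadjusted p under 0.05 (1.44% of all genes). The lower cytokines included members of the TNF family. Lta, which encodes lymphotoxin-α, read 9.71 and 9.95 log2 units in the wild-type arrays and 8.98 and 8.77 in the Tet2-/- arrays, a 1.93-fold difference (log2 -0.95, SE 0.155, adjusted p = 0.177). Tnf, which lies beside Lta on the chromosome, read 10.59 and 10.74 in wild-type and 10.31 and 10.11 in Tet2-/- cells (-0.45, SE 0.154). Tnfsf8, the CD30 ligand, differed by -0.38, Cd40lg, the CD40 ligand that licenses B cells, by -0.34, and Fasl, the death ligand, by -0.27. Il2, the T cell growth factor, read 6.93 and 7.26 in wild-type and 6.66 and 6.32 in Tet2-/- cells (-0.60, SE 0.17). Lif, a cytokine of the IL-6 family, differed by -0.30 and Il24 by -0.42; Il10 did so by -0.40, at readings of 4.05 to 4.53 that lie far under the median of all genes, so its expression is not shown. The 2 higher members were Tgfb3, which encodes a form of TGF-β that Th17 cells themselves make (6.49 and 6.75 in wild-type and 7.28 and 6.67 in Tet2-/- cells), and Csf1 (0.13).

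With each Th17 array left out in turn, 20 to 22 of 27 were lower and the median ran from -0.27 to -0.18. The members at an unadjusted p under 0.05 in the lower direction numbered 9 without wild-type replicate 1, 3 without wild-type replicate 2, 9 without Tet2-/- replicate 1 and 4 without Tet2-/- replicate 2. Without the arrays of highest and lowest Y-linked level, 24 were lower (median -0.24), 2 of them at an unadjusted p under 0.05. A related list, of TNF family members and NF-κB targets, had 16 of 25 members lower (median -0.06), 6 at an unadjusted p under 0.05; without wild-type replicate 2, 10 of 25 were lower (median 0.03). Apart from Lta, Tnf, Tnfsf8 and Fasl these were the receptors Tnfrsf9 (4-1BB), at 11.32 and 11.31 in wild-type and 10.57 and 10.84 in Tet2-/- cells, and Tnfrsf4 (OX40), at -0.37. Among the NF-κB target genes of the list, Nfkbia, which encodes the inhibitor IκBα, differed by -0.06, Nfkb2, an NF-κB subunit gene, by 0.03, its partner Relb by -0.02, the adhesion molecule gene Icam1 by -0.03 and the signalling adaptor gene Traf1 by 0.28. Tnfrsf14, the receptor HVEM, went the other way, at 8.77 and 9.15 in wild-type and 9.70 and 9.56 in Tet2-/- cells (0.66, SE 0.146).

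Chemokines and their receptors split. Beside Ccl20, Ccl3, an inflammatory chemokine, read 10.65 and 10.64 in wild-type and 10.08 and 10.33 in Tet2-/- cells (-0.44, SE 0.146), while Ccl5 read 8.19 and 8.24 in wild-type and 8.35 and 8.72 in Tet2-/- cells (0.32, SE 0.144); over 16 measured chemokines 9 were higher and 7 lower, and 6 were higher with the arrays centred on their medians. Among 17 chemokine and egress receptors 12 were higher (median 0.07), but 9 with the arrays centred on their medians, 8 without the arrays of highest and lowest Y-linked level (median -0.02) and 7 without Tet2-/- replicate 2 (median -0.04). The receptors Ccr4 and Ccr8, both of Th2 and regulatory T cells though Th17 cells also carry Ccr4, were the lower ones with an unadjusted p under 0.05: Ccr4 read 11.33 and 11.35 in wild-type and 10.90 and 10.72 in Tet2-/- cells, and Ccr8 differed by -0.41 (SE 0.115), with no overlap. Cxcr4, which retains cells in bone marrow and lymphoid tissue, read 8.50 and 8.48 in wild-type and 8.91 and 8.76 in Tet2-/- cells (0.34, SE 0.124). In the Th2 list 13 of 14 measured members were lower (median -0.18), 4 at an unadjusted p under 0.05, namely Ccr4, Ccr8, Il10 and Il24. With single arrays left out 10 to 13 were lower, and the median was -0.12 without wild-type replicate 2. The Th2 cytokines Il4, Il5 and Il13 differed by -0.02, -0.23 and -0.03.

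Several receptors of activated T cells also lay lower. Gpr83, a receptor of regulatory T cells, gave the smallest p of the lower genes: 8.88 and 8.96 log2 units in the wild-type arrays and 7.99 and 7.96 in the Tet2-/- arrays, 1.93-fold lower (log2 -0.95, SE 0.128, adjusted p = 0.0689). It passed the threshold with dim genes left out (adjusted p = 0.0382) and with array weights (0.0307), and the adjusted p reached 0.999 without moderation of the variance. Of 24 regulatory T cell genes 18 were lower (median -0.07), and Gpr83, Tnfrsf9 and Tnfrsf4 had an unadjusted p under 0.05. With single arrays left out 15 (without wild-type replicate 2, median -0.06) to 20 (without wild-type replicate 1, median -0.13) were lower. Among 18 inhibitory and costimulatory receptors 13 were lower (median -0.10), with the costimulator Cd226 at 7.74 and 8.17 in wild-type and 7.47 and 7.37 in Tet2-/- cells and Slamf1 at -0.34. Without wild-type replicate 2, 11 of these 18 were lower (median -0.04). Genes induced by the T cell receptor were lower in 23 of 29 cases (median -0.10), 3 lower members and 1 higher member at an unadjusted p under 0.05. The immediate early factor Nr4a3 was one of the former (-0.34), and Zfp36, which destabilises cytokine mRNAs, was the latter at 7.78 and 7.93 in wild-type and 8.22 and 8.09 in Tet2-/- cells. This list rested on single arrays: without wild-type replicate 2, 15 of 29 were lower, and without Tet2-/- replicate 2, 16 of 29 (median -0.01 in both).

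Cytokine receptors and signal inhibitors split evenly. Of 28 measured 14 were higher and 14 lower (median 0.01), 3 higher and 2 lower at an unadjusted p under 0.05. With single arrays left out, the number higher ran from 9 without wild-type replicate 1 to 19 without wild-type replicate 2 or Tet2-/- replicate 2. Genes of the TGF-β system also lay on both sides, with 11 of 20 higher in the TGF-β response list. Tgfbr1, the signalling receptor for TGF-β, read 8.88 and 8.67 in wild-type and 8.24 and 8.29 in Tet2-/- cells (-0.51, SE 0.134), whereas Tgfbr2, its ligand-binding partner, differed by 0.26 and Smad7, the inhibitor they induce, by 0.33. Ifngr1, the interferon-γ receptor chain, read 9.69 and 9.63 in wild-type and 10.19 and 10.05 in Tet2-/- cells, higher without overlap, and Il12rb2, the IL-12 receptor chain of Th1 cells, 10.14 and 10.23 in wild-type and 10.53 and 10.56 in Tet2-/- cells. Socs2, a feedback inhibitor of cytokine signals, differed by -0.54 (SE 0.183). Itga6, the integrin α6 chain, read 9.21 and 8.99 in wild-type and 8.61 and 8.53 in Tet2-/- cells (-0.53, SE 0.128).

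In the other direction, Klrd1 and its partner chains read higher. Klrd1 encodes CD94, the shared chain of the NKG2 receptors of NK cells. It read 6.34 and 6.56 log2 units in the wild-type arrays and 7.29 and 8.10 in the Tet2-/- arrays, 2.37-fold higher (log2 1.24, SE 0.203, adjusted p = 0.177). Tet2-/- replicate 2 gave the higher of the 2 Tet2-/- readings; the difference was 1.65 without Tet2-/- replicate 1 (adjusted p = 0.00195) and 0.84 without Tet2-/- replicate 2 (adjusted p = 0.434). Its partner chains Klrc1 and Klrc2 read 5.26 and 5.35 in wild-type and 5.48 and 6.07 in Tet2-/- cells and 5.51 and 5.59 in wild-type and 5.87 and 6.15 in Tet2-/- cells, under the median of all genes on every array, and their sequences are alike enough that their probesets may share signal. In the list of these receptors and cytotoxic granule genes 16 of 23 were higher (median 0.10), 4 at an unadjusted p under 0.05, and 14 without Tet2-/- replicate 2 (median 0.06). Most members read under the median of all genes, and with dim genes left out 4 of 9 were higher (median -0.02). The NK cell list was higher in 7 of 8 measured members, with a mean level of 4.93 and 4.83 in the wild-type and 4.97 and 5.06 in the Tet2-/- arrays; Ncr1, Klrb1c and Klre1, which mark NK cells, read 4.02 to 4.76 on the Th17 arrays, and the part of such cells in the Klrd1 reading was not tested.

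**Figure D4:**
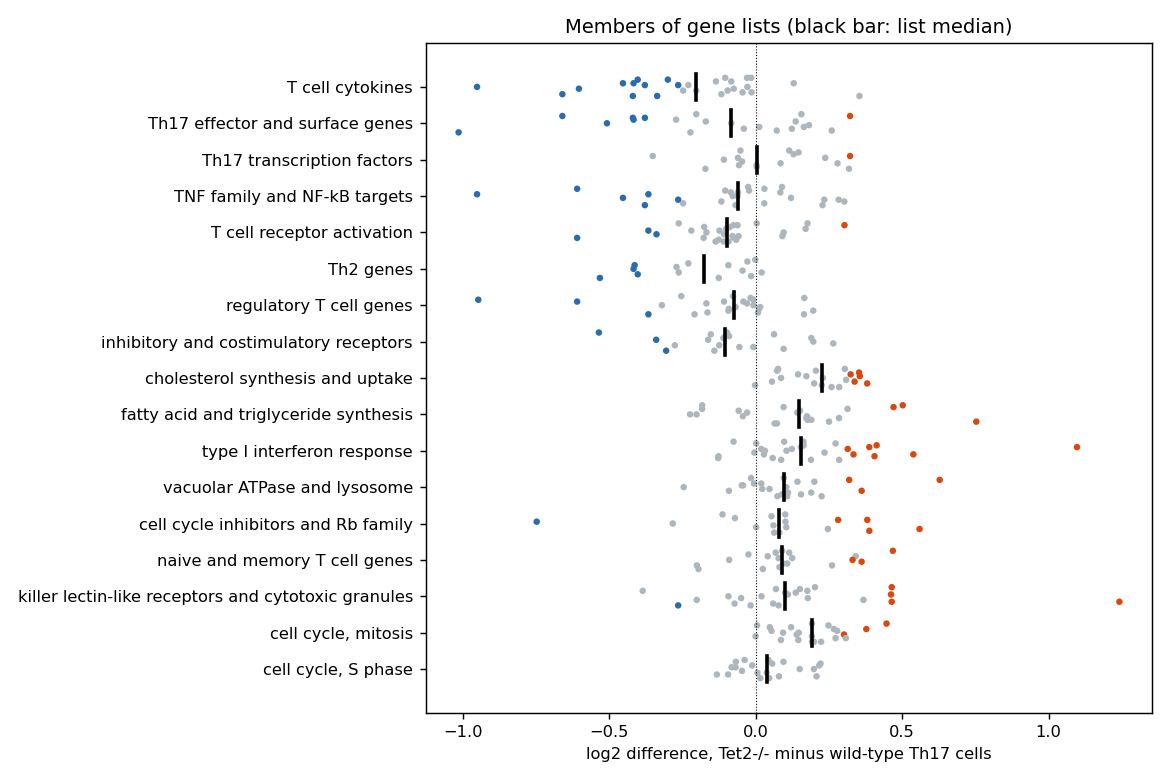
Log2 differences (Tet2-/- minus wild-type Th17 cells) of the members of 17 gene lists, each point a gene and each black bar the list median; blue and orange points had an unadjusted p under 0.05 in the lower and higher direction, grey points did not. Cytokines have a median of -0.20 and 11 blue points, cholesterol genes a median of 0.23 and 5 orange points, and Th17 transcription factors a median of 0.00.

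Genes of cholesterol synthesis lay higher nearly throughout. Of 20 measured genes 19 were higher (median 0.23, all genes 0.02 with 56.6% higher), in 15 the genotypes did not overlap (19.9% of all genes in that direction) and 5 had an unadjusted p under 0.05 (2.81% of all genes). Fdps, which makes farnesyl pyrophosphate, read 9.55 and 9.67 in wild-type and 10.01 and 9.92 in Tet2-/- cells (0.36, SE 0.12). Hmgcs1, the first enzyme specific to the pathway, read 9.75 and 9.30 in wild-type and 9.95 and 9.86 in Tet2-/- cells, Lss, which closes the sterol ring, 7.86 and 8.04 in wild-type and 8.38 and 8.23 in Tet2-/- cells, and Dhcr7, which completes cholesterol, 7.71 and 7.99 in wild-type and 8.35 and 7.99 in Tet2-/- cells. In these genes Tet2-/- replicate 1 tended to read highest: the list median relative to the wild-type mean was 0.35 in that array and 0.11 in Tet2-/- replicate 2. The count at an unadjusted p under 0.05 was 0 without Tet2-/- replicate 1 and 9 without Tet2-/- replicate 2, with 19 of 20 higher in both. Of the 16 cholesterol genes with a promoter in the RefSeq table, 1 held the sterol response core (6.25%, against 2.86% of all promoters). That gene was Hmgcs1 itself, printed above, so the core is not a trait of the list.

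Genes of fatty acid and triglyceride synthesis included larger single differences. Dgat1, which makes the last bond of triglycerides, read 9.31 and 9.50 log2 units in the wild-type arrays and 10.13 and 10.18 in the Tet2-/- arrays, 1.69-fold higher (log2 0.75, SE 0.135, adjusted p = 0.263). Lpin1, the phosphatase of the step before it, read 8.12 and 8.38 in wild-type and 8.86 and 8.58 in Tet2-/- cells, and Fads2, a fatty acid desaturase, 7.83 and 8.10 in wild-type and 8.46 and 8.47 in Tet2-/- cells. Dgat2, the other enzyme of the last step, differed by -0.18. Over the list 15 of 22 were higher (median 0.15, with 56.6% of all genes higher), 3 at an unadjusted p under 0.05 (2.81% of all genes). The median was 0.06 without wild-type replicate 1 and 0.07 without Tet2-/- replicate 1. Lysosomal genes and subunits of the vacuolar ATPase, the proton pump of lysosomes, were higher in 17 of 23 cases (median 0.10, and 0.06 without Tet2-/- replicate 1), 3 at an unadjusted p under 0.05: Atp6v0d2 at 9.72 and 9.81 in wild-type and 10.30 and 10.49 in Tet2-/- cells, Atp6v0a1 at 0.36 and the protease Ctsd at 0.32.

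Type I interferon response genes read higher in 23 of 27 cases (median 0.15), 7 of them at an unadjusted p under 0.05 (2.81% of all genes) and 0 in the lower direction (1.44%). Usp18, a protease that removes the ubiquitin-like ISG15, read 6.66 and 6.75 in wild-type and 7.27 and 7.21 in Tet2-/- cells (0.54, SE 0.114), Oas3, a sensor of double-stranded RNA, 6.78 and 6.95 in wild-type and 7.33 and 7.21 in Tet2-/- cells, and the transcription factor Irf7 6.31 and 6.24 in wild-type and 6.68 and 6.70 in Tet2-/- cells. Trim30a had the largest difference of the list, with readings of 8.10 and 8.77 in wild-type and 9.32 and 9.75 in Tet2-/- cells (1.10, SE 0.274), or 0.55 without the arrays of highest and lowest Y-linked level; it belongs to a family of closely related genes, so its reading may include copies. Of the 19 members with a promoter in the table, 11 held the GAAANNGAAA core (57.9%, against 3.31% of all promoters), as Trim30a and Oas3 above. In the 447 promoters of genes higher at an unadjusted p under 0.05 the share was 5.59%, and in the 204 of lower genes 1.96%. The 447 include members of this list, Trim30a and Oas3 among them, so these shares are not independent of the list. In place of 23, 17 were higher without wild-type replicate 1 (median 0.07) and 16 without the arrays of highest and lowest Y-linked level (median 0.07, 1 at an unadjusted p under 0.05); the median was 0.26 without wild-type replicate 2.

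Cell cycle genes followed single arrays. Of 23 mitosis genes 22 were higher (median 0.19), and the 2 Tet2-/- arrays differed: the list median relative to wild-type was 0.46 in Tet2-/- replicate 2 and -0.07 in Tet2-/- replicate 1. Without Tet2-/- replicate 1, 23 of 23 were higher and 15 had an unadjusted p under 0.05, against 3 with all arrays. Without Tet2-/- replicate 2, 6 of 23 were higher (median -0.07), and without the arrays of highest and lowest Y-linked level 5 of 23. Bub1, a spindle checkpoint kinase, read 7.24 and 7.26 in wild-type and 7.46 and 7.93 in Tet2-/- cells. Of 21 S phase genes 13 were higher (median 0.04), with 0 members at an unadjusted p under 0.05 in limma. Without Tet2-/- replicate 1, 19 were higher (median 0.17), and without Tet2-/- replicate 2, 4 were (median -0.11). Cdc25b, a phosphatase that starts mitosis, read 7.65 and 7.71 in wild-type and 8.08 and 8.72 in Tet2-/- cells and was also highest in Tet2-/- replicate 2 (0.72, SE 0.172; 0.40 without that array).

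Several genes that restrain the cell cycle read higher. Ccng2, a cyclin of quiescent cells, read 7.97 and 7.80 in wild-type and 8.31 and 8.58 in Tet2-/- cells (0.56, SE 0.158), Cdkn1b, the inhibitor p27, 9.26 and 8.95 in wild-type and 9.55 and 9.44 in Tet2-/- cells, and Cdkn2d, the inhibitor p19, 7.40 and 7.67 in wild-type and 7.88 and 7.95 in Tet2-/- cells. Rbl2, a retinoblastoma family repressor of the cycle, went the other way, at 9.31 and 8.95 log2 units in the wild-type arrays and 8.44 and 8.33 in the Tet2-/- arrays (1.68-fold lower, log2 -0.75, SE 0.15, adjusted p = 0.462). The list of inhibitors and the retinoblastoma family also holds the D cyclins and their kinases Cdk4 and Cdk6, which drive the cycle. Of its 17 members 13 were higher (median 0.08, and 0.05 without wild-type replicate 1), 4 of them at an unadjusted p under 0.05, and Rbl2 was the only lower member at that level. In the list of naive and memory T cell genes 15 of 19 were higher (median 0.09): Klf3, a repressor expressed in resting lymphocytes, read 6.98 and 6.93 in wild-type and 7.41 and 7.44 in Tet2-/- cells, and Txnip, a brake on glucose uptake, 10.53 and 10.44 in wild-type and 10.89 and 10.74 in Tet2-/- cells. Without wild-type replicate 1, 8 of the 19 were higher (median -0.03), and without Tet2-/- replicate 1, 10 (median 0.05). Of 14 measured BCL2 family genes 6 were higher and 8 lower (median -0.03, range -0.34 to 0.36). In each direction 1 had an unadjusted p under 0.05. At the upper end the death-promoting Bcl2l11, which encodes BIM, read 7.64 and 7.96 in wild-type and 8.20 and 8.12 in Tet2-/- cells. At the lower end the survival gene Bcl2 read 10.69 and 10.48 in wild-type and 10.30 and 10.19 in Tet2-/- cells. The list as a whole thus showed no shift in 1 direction.

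Further genes with large differences belonged to no list above or stood alone in theirs. Lum, which encodes the matrix proteoglycan lumican, gave the smallest p of all genes: 6.98 and 7.10 log2 units in the wild-type arrays and 8.13 and 8.00 in the Tet2-/- arrays, 2.03-fold higher (log2 1.02, SE 0.133, 95% confidence interval 0.74 to 1.31, adjusted p = 0.0689). Its adjusted p ran from 0.0304 to 0.999 over the alternatives, and it passed the threshold with dim genes left out, with array weights and with the replicate number as a block. Dcn, the gene of the proteoglycan decorin and the neighbour of Lum, read 5.60 and 5.91 in wild-type and 6.11 and 6.58 in Tet2-/- cells, while the stromal collagens Col1a1, Col1a2 and Col3a1 differed by 0.05, 0.02 and 0.08. Over the 17 stromal and endothelial markers the mean level was 6.17 and 6.21 in the wild-type and 6.33 and 6.34 in the Tet2-/- arrays, 13 being higher and 2 (Lum and Dcn) at an unadjusted p under 0.05. The part of such cells in the Lum reading was not tested. Ly6g, a surface protein known from neutrophils and part of a family of similar genes, read 9.03 and 9.54 in wild-type and 10.40 and 10.15 in Tet2-/- cells (0.99, SE 0.17); the neutrophil genes S100a8 and S100a9 differed by -0.05 and 0.03, and 9 of the 13 neutrophil markers were lower.

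Klk1b22, a kallikrein of a large gene family, had the largest difference and the largest standard error of the 28 genes plotted by array: 7.66 and 5.87 log2 units in the wild-type arrays and 8.57 and 8.41 in the Tet2-/- arrays (1.73, SE 0.437, adjusted p = 0.73). It came past the threshold without wild-type replicate 1 (2.62, adjusted p = 0.0461) and differed by 0.83 without wild-type replicate 2. Lgr4, a receptor for R-spondins, read 7.73 and 7.76 in wild-type and 8.60 and 8.42 in Tet2-/- cells, with the 2 arrays of each genotype close together (0.76, SE 0.119, adjusted p = 0.177). Upp1, a uridine phosphorylase, differed by 0.73, Ttc39c by 0.67, Lpar6, a receptor for lysophosphatidic acid, by 0.65 and Rnf125, a ubiquitin ligase of antiviral signalling, by 0.63. The remaining lower genes were Emp1, a membrane protein, at 10.15 and 9.81 in wild-type and 9.07 and 9.14 in Tet2-/- cells (-0.88, SE 0.186), the potassium channel gene Kcnk5 at -0.59, Cdk5rap1, a tRNA-modifying enzyme, at -0.55, and Hbegf, an epidermal growth factor family ligand, at -0.53.

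Genes of DNA methylation and demethylation differed little. Of 24 measured genes 14 were lower and 10 higher (median -0.03), and 1 had an unadjusted p under 0.05, Idh1 (6.38 and 5.82 in wild-type and 6.41 and 6.51 in Tet2-/- cells), an isocitrate dehydrogenase that makes the cosubstrate of Tet enzymes. Tet1 differed by -0.04 (confidence interval -0.29 to 0.20), Tet3 by 0.04 (-0.21 to 0.29), the maintenance methyltransferase gene Dnmt1 by 0.12 (-0.14 to 0.39), and the genes of the de novo enzymes Dnmt3a and Dnmt3b by -0.08 (-0.35 to 0.19) and -0.18 (-0.46 to 0.11). Lists of heat shock (13 measured, 5 higher), glycolysis and hypoxia (23, 15 higher), p53 target (18, 12 higher), TGF-β response (20, 11 higher), interferon-γ response (20, 11 higher), integrin (17, 11 higher), amino acid and ER stress (25, 6 higher) and Th1 genes (18, 9 higher) had medians between -0.10 and 0.07. With single arrays left out these medians ran from -0.12 to 0.15, and all but those of the glycolysis and p53 lists changed sign. With the arrays centred on their medians, 10 TGF-β response, 9 interferon-γ response and 7 Th1 genes were higher. In the glycolysis list Hk2, the hexokinase that starts glycolysis, read 8.91 and 8.99 in wild-type and 8.60 and 8.66 in Tet2-/- cells, while the glucose transporter Slc2a3 read 10.14 and 10.12 in wild-type and 10.33 and 10.53 in Tet2-/- cells.

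Promoter CpG content differed widely between the lists. The 22 cytokine promoters in the table held a median of 6.5 CG dinucleotides, the 11 chemokine promoters 4, and the 21 promoters of killer lectin-like receptors and granule genes 3, against 15 over all measured genes. Cholesterol (24.5), mitosis (25) and T cell receptor activation genes (22) lay above it. Genes lower at an unadjusted p under 0.05 had a median of 15.5 (204 promoters) and those higher a median of 13 (447 promoters). Promoters with 2 or fewer CG dinucleotides made up 13.2% of the former, 21.2% of the latter and 15.6% of all. The cytokine list (median difference -0.20) and the list of killer receptors and granule genes (0.10, or -0.02 with dim genes left out) both had CpG-poor promoters.

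**Figure D5:**
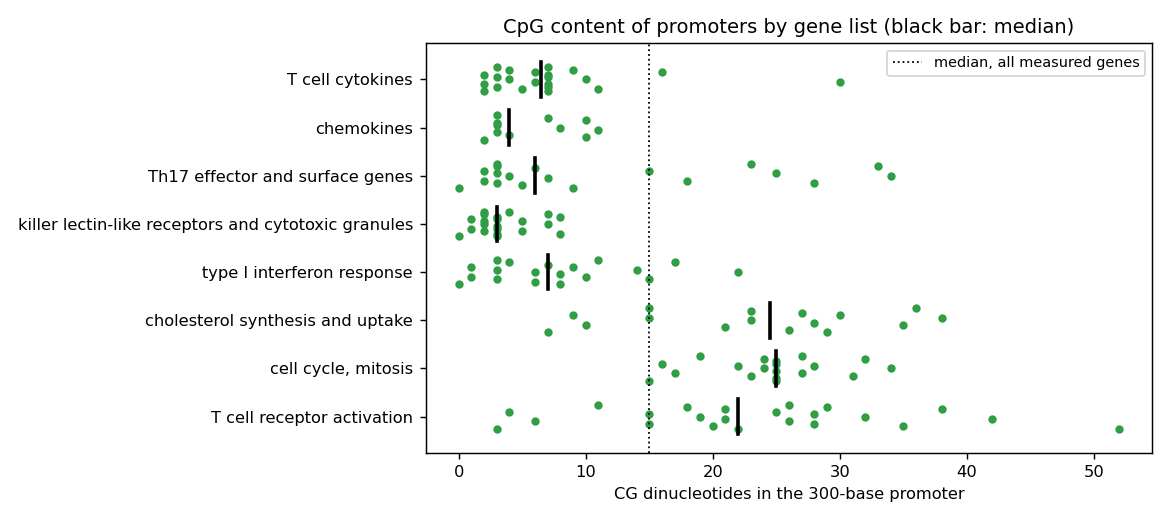
Number of CG dinucleotides in the 300-base RefSeq promoter (x axis) of the members of 8 gene lists, each point a gene and each black bar the list median; the dotted line is the median of 15 over all measured genes. The medians of cytokine (6.5) and killer receptor and granule gene promoters (3) lie left of the line and cholesterol (24.5) and mitosis promoters (25) right of it.

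Whether these differences belonged to Th17 cells in particular was asked with the difference between the genotype effects in Th17 and Th1 cells. After adjustment 0 genes (0%) passed in limma, and 908 (4.55%) did so before adjustment. Usp18 differed by 0.54 in Th17 and -0.49 in Th1 cells (adjusted p of the difference = 0.194), Lum by 1.02 and -0.06 (0.306), Ccl20 by -1.01 and 0.22 (0.548), and Dgat1 by 0.75 and -0.06 (0.823). For Bcl6 the values were 0.75 and 0.05 (0.999), for Lta -0.95 and -0.33 (0.999), for Gpr83 -0.95 and -0.23 (0.954) and for Tnfrsf14 0.66 and 0.46 (0.999). None of these differences between cell types passed the test.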

How the data were processed

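Expression was measured on 8 arrays, 1 per culture. Each deposited table entry is a log2 value. Per the submitters' processing notes the tools were RMA and Partek. The log base was inferred from the values, and versions are not given in the sources used here. Of 35556 probesets, 21789 had 1 gene symbol in the platform annotation, 1621 several and 12146 none listed; 21698 of the symbols were found by Entrez ID in a GRCm38.p6 gene table and 0 changed. The highest-mean probeset was kept for the 999 genes with more than 1, with no filter on low values.

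Limma 3.58.1 (R 4.3.3) fitted group means over the 8 arrays, so the Th1 arrays share in the estimate of the spread, and moderated it with an intensity trend (4 residual and 8.44 prior degrees of freedom). Tests were two-sided, with Benjamini-Hochberg adjustment over 19938 genes and a threshold of 0.05. The labels name biological replicates but no animals, and the Th17 replicates of each genotype differed in sex-linked transcripts. The p values measure the spread between these samples, of which the technical part is unknown, and the number of arrays limits the precision. In simulated data of this layout over 19938 genes, 58% of genes changed by 0.5 and 100% of those changed by 1 were recovered in the Th17 comparison, with 12 false calls. There 50 genes each were changed by 0.5, 1, 1.5 and 2, and the noise was independent between arrays, at the moderated variance of each gene. These shares therefore do not give the recovery in the measured arrays, where Lum was not called at a difference of 1.02. Alternatives covered the variance model, dim genes, probeset choice, scaling, array weights, Y-linked level, the replicate block and each array left out.

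Members, lists and rules were chosen with earlier results of these data known. Genes named were Tet2, the 14 largest differences per direction among genes with an unadjusted p under 0.01, no overlap between genotypes and a higher-genotype mean at or above the median of all genes (predicted, olfactory, RIKEN and small RNA genes not named), a panel of Th17 genes, and up to 5 members per list with the smallest p. Further list members given for contrast were chosen after their values were seen. Lists are described by counts and medians, without a set test. Promoters and motif letters (both strands, overlaps counted) came from RefSeq.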

Additional observations from a re-analysis of the deposited data

How the results depend on the processing

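Leaving out dim genes (2 calls, Gpr83 and Lum), array weights (2, the same genes) and the replicate number as a block (2, Klrd1 and Lum) brought genes past the adjusted threshold, and leaving out 1 Th17 array gave 0 to 9 calls, the 9 without Tet2-/- replicate 1 including Klrd1, Ccl20, Cdc25b and the Y-linked Eif2s3y and Uty. The same omissions gave 423 to 694 higher and 215 to 297 lower genes at an unadjusted p under 0.05, and 0 to 4 calls for the difference between cell types. Without the Th17 arrays of highest and lowest Y-linked level there were 354 higher and 164 lower. Arrays of the same replicate number did not deviate together across genes (correlation of deviations -0.0784 in Th17 cells). This single value cannot show whether they shared a preparation, which the labels do not say. With the block 499 genes were higher and 243 lower at an unadjusted p under 0.05.

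Of 1084 values of 68 genes under 16 alternatives, 1060 kept their direction and side of the threshold, 10 passed it and 14 of 7 genes turned, none of them called. With the Y-linked level as covariate Il17f was 0.045 and Maf 0.20; without the arrays of highest and lowest Y-linked level Maf was 0.078, Dnmt1 -0.0087 and Kif20a -0.01. With 1 Th17 array left out the range was -0.28 to 0.11 for Il17f, -0.44 to 0.35 for Maf, -0.14 to 0.13 for Foxp3, -0.087 to 0.0024 for Tet1 and -0.014 to 0.094 for Tet3. No alternative was left out. Probesets near the lower end of the scale, such as those of Il10 and the Klrc genes, limit what could be seen as lower.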

Other observations

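Some genes with an unadjusted p under 0.01 lie next to each other in the gene order of GRCm38.p6. Among 202 such genes the neighbouring pairs with a difference in the same direction included Dcn and Lum (0.59 and 1.02) and a run of interferon-inducible genes on chromosome 1, Ifi214, Ifi213 and Ifi209, of the family that holds sensors of DNA. Ifi209 read 5.59 and 5.63 in wild-type and 5.95 and 6.72 in Tet2-/- cells (0.73), and Ifi213 and Ifi214 differed by 0.42 and 0.43; these genes were picked after their values were seen, and their sequences are similar, so their probesets may share signal. Klhl6 and Klhl24, kelch-like genes on chromosome 16, differed by 0.40 and 0.59. Other neighbours went in opposite directions, namely Klf3 and Tlr1 (0.47 and -0.42) and Vmn1r85 and Vmn1r86 (0.47 and -0.55). Whether such pairs are more frequent than among any 202 genes was not tested. Of the 20 measured genes that flank Tet2, 10 on each side on chromosome 3, 0 had an unadjusted p under 0.05 in the limma fit, and their differences ran from -0.17 to 0.14.

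Wide Th17 differences were also read in probesets with no single gene symbol, which entered no result above. Of 13767 such probesets 787 had an unadjusted p under 0.05 and 0 an adjusted p under 0.05 (limma, over all 35556 probesets). Among the genes compared above, 848 of 19938 (4.25%) had an unadjusted p under 0.05. The direction of the 787 was not counted. The probesets given here were chosen after their values were seen. Probeset 10338065 read 9.92 and 10.77 in wild-type and 6.46 and 4.44 in Tet2-/- Th17 cells, and 4.31 to 6.57 in Th1 cells. Probeset 10338047 read 9.57 and 10.41 in wild-type and 6.39 and 4.85 in Tet2-/- Th17 cells, and 4.70 to 6.44 in Th1 cells. Others with wide differences moved as widely within a genotype. Probeset 10338064 read 3.88 and 9.17 in wild-type Th17 cells and 9.45 and 3.97 in wild-type Th1 cells. Probeset 10338067 read 5.49 and 7.98 in Tet2-/- Th17 cells and 10.74 and 6.43 in wild-type Th1 cells. The sources used here do not say what these probesets measure, or whether they are array controls rather than genes. Their readings are therefore not taken as transcripts that differ with Tet2.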
